A study of Homo sapiens with 6 samples.

Results

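The genes described here encode 44 proteins of the U1 snRNP, the U4/U6.U5 tri-snRNP and the catalytic spliceosome, without those of the U2 snRNP. They were listed by symbol and not picked by their values, though earlier results of these data were known. All 44 were found among the 62111 gene rows of the deposited tables. They fall into 7 role groups: 3 U1 snRNP proteins, the 7 proteins of the Sm ring, the 7 of the LSM2-8 ring, 7 U4/U6 and tri-snRNP proteins, 5 U5 snRNP proteins, 9 proteins of the PRP19 complex and its partners, and 6 step factors. RNA was sequenced from K562 cells, an erythroid-like line established from a person with chronic myeloid leukaemia in blast crisis. There were 3 libraries from cells with the SF3B1-K700E substitution (K700E) and 3 from cells with wild-type SF3B1 (WT). SF3B1 belongs to the U2 snRNP, which recognises the branch point, and the substitution is frequent in blood cancers. The labels do not say how the K700E cells were made, whether they are 1 clone, or whether replicates came from separate cultures, so each p-value measures only the spread between these libraries.

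The spliceosome assembles anew on each intron. The U1 snRNP pairs with the 5′ splice site and the U2 snRNP with the branch point, and the U4/U6.U5 tri-snRNP then joins as a preformed particle. Helicases unwind U4 from U6, the PRP19 complex stabilises the catalytic RNA core, and step factors position the substrates for branching and exon ligation. Cancer-associated SF3B1 substitutions are known for changing which 3′ splice sites are used, but values per gene show neither splice sites nor isoforms.

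Values were TPM, the reads of a gene divided by its length and scaled to 1000000 in each library. Recovered totals were 111.6, 123.0 and 126.5 (in units of 1000000 read ends) in K700E replicates 1, 2 and 3, and 104.6, 133.6 and 136.6 in WT replicates 1, 2 and 3. Among the 44 genes the lowest count of read ends in any library was 879, for PRPF18. The part of counting in the spread between libraries was not computed. WT replicate 3 stood apart over the 15493 genes tested. Its value lay between those of WT replicates 1 and 2 in 75.9% of them, against 10.2% to 46.3% for the other libraries. Among the 44 spliceosome genes it lay between in 32 (72.7%). That count was 27 (61.4%) for K700E replicate 2 and 4 to 9 for the remaining libraries. The counts over the 44 genes and the 5 genes with the smallest p-values are given below with and without WT replicate 3. SF3B1 itself stood at 160, 136 and 118 TPM in K700E, against 144, 98.9 and 115 TPM in WT, with a limma adjusted p of 0.602, and gene values do not show the substitution. Erythroid marker genes, 8 of 8 detected, summed to 4036 to 8334 TPM in K700E and 3371 to 5682 TPM in WT. Summed lymphoid markers, 7 of 7 detected, came to 5.55 to 10.4 TPM in K700E and 4.71 to 5.03 TPM in WT. Summed stromal markers, 5 of 5 detected, came to 3.95 to 6.16 TPM in K700E and 1.94 to 3.07 TPM in WT. Summed myeloid markers, 5 of 5 detected, came to 67.3 to 184 TPM in K700E and 118 to 138 TPM in WT. Summed endothelial markers, 2 of 3 matched to a gene row, reached at most 0.146 TPM in K700E and 0.0352 TPM in WT. The part of these cell type markers in the differences below was not tested.

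The promoters below are shown because their genes were the 5 of the 44 with an unadjusted p under 0.05. SNW1 was lower in K700E than in WT, and PRPF4, CDC5L, PLRG1 and SNRPD3 were higher, although none passed the adjusted threshold. Each line gives the 250 bases before the RefSeq start on the gene's own strand (GRCh38.p14): SNW1 chr14:77761157-77761406, minus strand, PRPF4 chr9:113275408-113275657, plus strand, CDC5L chr6:44387456-44387705, plus strand, PLRG1 chr4:154550401-154550650, minus strand, and SNRPD3 chr22:24555400-24555649, plus strand, the first of its 2 entries. Capitals mark matches to a ZNF143 motif in SNW1 and PRPF4, to the NRF1 core and a CCAAT box in CDC5L, and to the ETS core in PLRG1. SNRPD3 has no capitals because none of the motifs searched was found there. ZNF143, NRF1 and ETS proteins are transcription factors that bind near the starts of many housekeeping genes.
SNW1: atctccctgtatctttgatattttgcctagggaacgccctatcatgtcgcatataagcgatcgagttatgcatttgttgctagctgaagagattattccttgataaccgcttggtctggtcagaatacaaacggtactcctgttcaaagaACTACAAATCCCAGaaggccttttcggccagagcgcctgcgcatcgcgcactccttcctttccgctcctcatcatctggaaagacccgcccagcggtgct
PRPF4: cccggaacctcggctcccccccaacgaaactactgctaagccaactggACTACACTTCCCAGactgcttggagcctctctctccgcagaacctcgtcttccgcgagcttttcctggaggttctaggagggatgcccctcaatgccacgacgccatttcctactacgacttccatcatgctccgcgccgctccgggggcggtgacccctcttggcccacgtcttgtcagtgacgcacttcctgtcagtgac
CDC5L: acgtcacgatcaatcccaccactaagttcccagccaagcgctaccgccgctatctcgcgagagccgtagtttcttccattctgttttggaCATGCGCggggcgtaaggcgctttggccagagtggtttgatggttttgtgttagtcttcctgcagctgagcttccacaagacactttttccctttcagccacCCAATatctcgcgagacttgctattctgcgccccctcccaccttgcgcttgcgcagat
PLRG1: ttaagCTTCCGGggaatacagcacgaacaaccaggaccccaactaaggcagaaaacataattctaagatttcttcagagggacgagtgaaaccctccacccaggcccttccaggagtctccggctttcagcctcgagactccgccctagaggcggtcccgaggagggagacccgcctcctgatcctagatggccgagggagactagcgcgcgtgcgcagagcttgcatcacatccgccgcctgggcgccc
SNRPD3: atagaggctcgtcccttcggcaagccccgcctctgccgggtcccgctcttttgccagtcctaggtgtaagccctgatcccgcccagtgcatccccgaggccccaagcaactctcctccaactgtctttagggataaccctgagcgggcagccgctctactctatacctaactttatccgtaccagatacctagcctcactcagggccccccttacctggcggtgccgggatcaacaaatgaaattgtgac

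The question was whether RNA levels of the spliceosome's other particles differ in cells whose U2 snRNP carries the substitution. None of the 44 genes passed the test in either direction: 0 were called higher and 0 lower at a limma adjusted p under 0.05, against 1.38% of all 15493 genes tested (178 higher, 1.15%, and 36 lower, 0.232%). At this background a list of 44 would hold few calls, so the count of 0 is not a result about these genes. At an unadjusted limma p under 0.05 there were 5 of 44 (11.4%), against 16.5% of all genes (13% higher and 3.52% lower). The 5 were SNW1, which was lower in K700E, and CDC5L, PRPF4, SNRPD3 and PLRG1, which were higher. The K700E and WT libraries did not overlap for 4 of 44 genes (9.09%), against 24.0% of all genes tested, or 19.0% with K700E above and 4.99% with K700E below. The count at an unadjusted p under 0.05 was 1 of 44 without K700E replicate 1, K700E replicate 2, WT replicate 2 or WT replicate 3, where the share over all genes was 12.6%, 12.3%, 14.9% and 9.59%. It was 4 of 44 without K700E replicate 3 (14.3% of all genes) and 6 of 44, or 13.6%, without WT replicate 1 (24.4% of all genes). The differences themselves moved less: over the fits that each left out 1 library, the log2 difference ran from 0.26 to 0.30 for SNRPD3, 0.31 to 0.39 for PRPF4, 0.35 to 0.52 for CDC5L and 0.29 to 0.56 for PLRG1. Without WT replicate 3 these genes had log2 differences of 0.28, 0.34, 0.40 and 0.39, with limma adjusted p-values of 0.685, 0.623, 0.603 and 0.658.

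The differences were small. The log2 difference in TPM + 1, K700E minus WT, had a median of 0.10 over the 44 genes, beside 0.13 over all genes tested, and ran from -0.68 for SNW1 to 0.42 for CDC5L. It was above 0 for 36 genes and below 0 for 8, while 19 lay above and 25 below the median of all genes. For 32 genes it was smaller than 0.2 in size. The 95% interval of the difference lay within 1.5-fold in either direction for 30 genes and within 2-fold for 43, SNW1 being the exception. Summed over the 44 genes, the level was 5587, 4986 and 4852 TPM in K700E, against 4652, 5120 and 4994 TPM in WT, and the libraries overlapped.

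**Figure D1:**
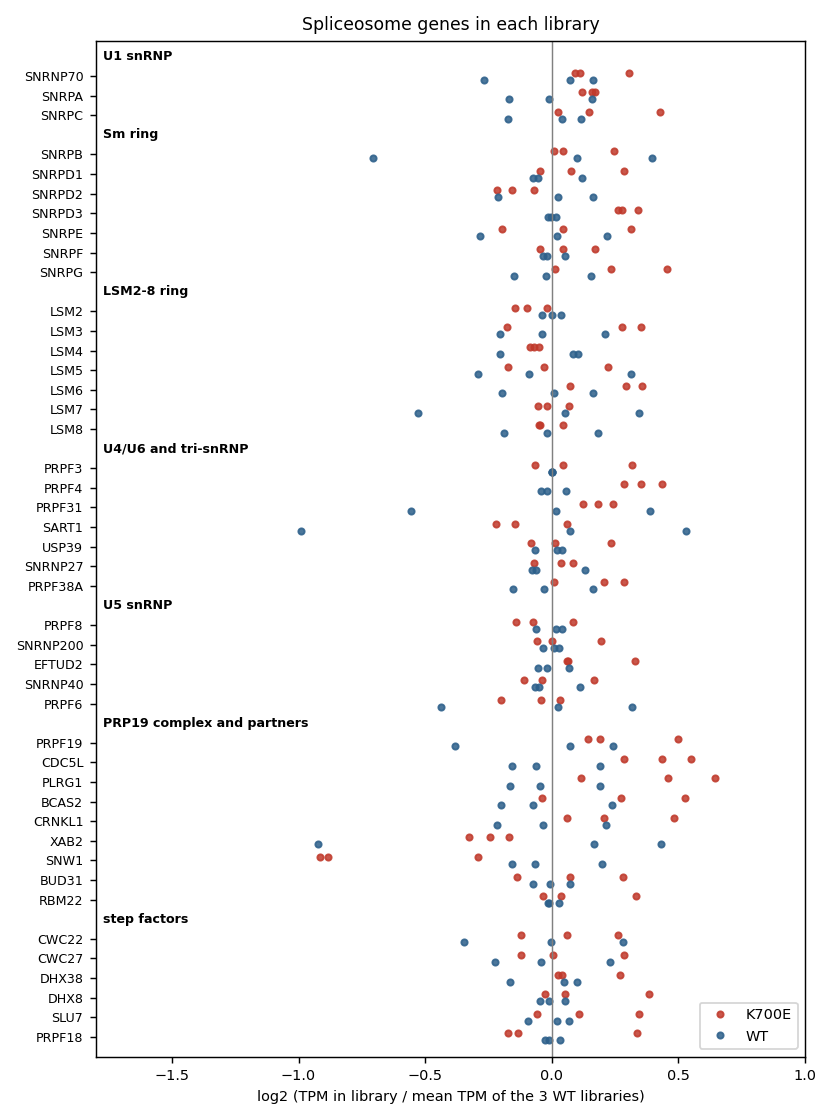
Level of each of the 44 genes in each library, as log2 of its TPM over the mean TPM of the 3 WT libraries (horizontal axis), by role group; red points are K700E libraries and blue points WT libraries. SNW1 has all 3 K700E points left of its WT points, and CDC5L, PRPF4 and SNRPD3 have theirs to the right, while SART1, XAB2 and SNRPB show 1 WT point far to the left.

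**Figure D2:**
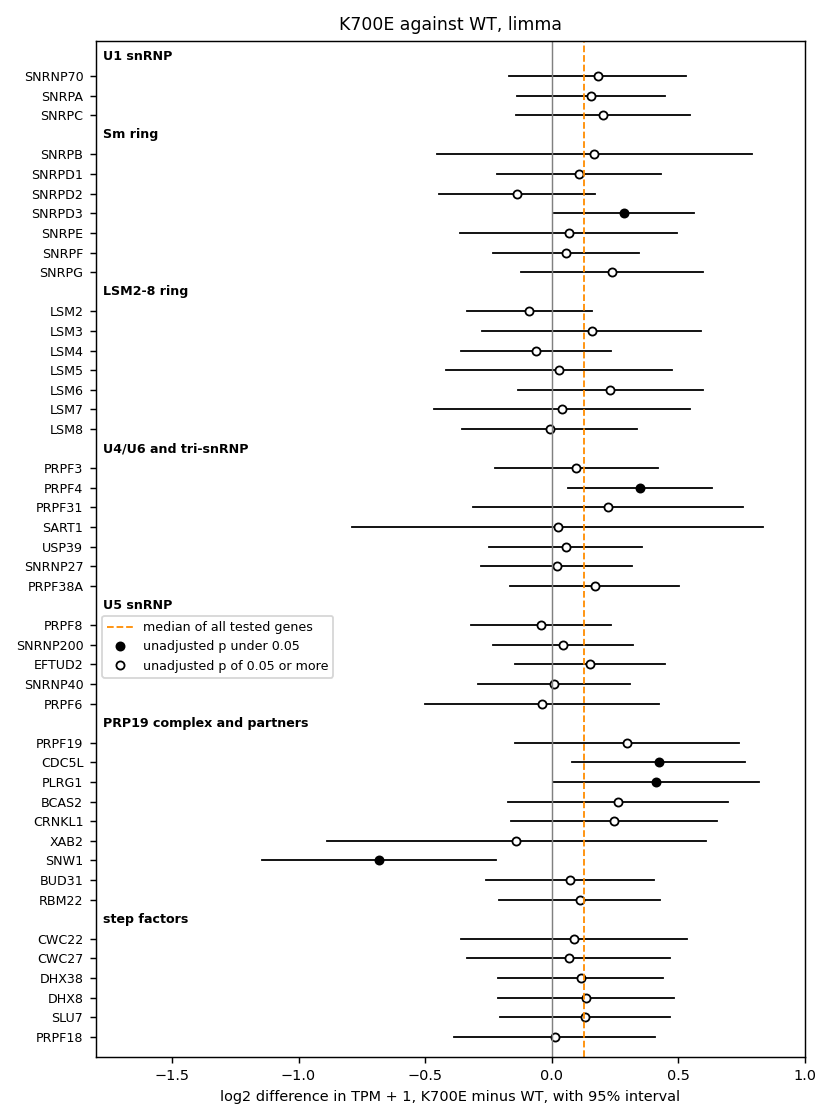
Log2 difference in TPM + 1, K700E minus WT, for each gene (points, n = 3 libraries each) with its 95% interval from limma (lines); filled points have an unadjusted p under 0.05 and the dashed line is the median of all tested genes, 0.13. The intervals of 39 of 44 genes include 0, and SNW1 at -0.68 lies farthest from it.

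The U1 snRNP recognises the 5′ splice site. None of its 3 specific genes passed the test, and the libraries of each overlapped, where 24.0% of all genes tested did not. Their median log2 difference was 0.18, beside 0.13 over all genes, and was 0.05 with TMM scaling, 0.04 with median-ratio scaling and 0.07 with the GC correction. SNRPC, the U1-C protein that contacts the 5′ splice site duplex, had 442, 364 and 335 TPM in K700E, against 292, 356 and 338 TPM in WT, a log2 difference of 0.20 (SE 0.15, limma adjusted p = 0.539). K700E replicate 1 was the highest and WT replicate 1 the lowest, and the other 4 libraries lay between 335 and 364 TPM. SNRNP70, the U1-70K protein that binds stem-loop I of U1 RNA, had 219, 215 and 250 TPM in K700E, against 168, 226 and 212 TPM in WT. SNRPA, the U1-A protein that binds stem-loop II, had 225, 218 and 224 TPM in K700E, against 199, 178 and 224 TPM in WT. The order SNRPC, SNRNP70, SNRPA was the same in both genotypes, and the last pair lay within their spread in WT.

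The Sm ring is the heptamer around the Sm site of U1, U2, U4 and U5 RNA, so its proteins are shared by all of these particles. Its genes had a median log2 difference of 0.11, or -0.02 with TMM and -0.04 with median-ratio scaling, and 1 of 7 had libraries that did not overlap, where 24.0% of all genes did not. That gene was SNRPD3, which encodes SmD3 (ENSG00000100028, GRCh37 chromosome 22, 24951967 to 24978020, plus strand). It had 38.6, 40.3 and 38.1 TPM in K700E, against 31.8, 32.2 and 31.5 TPM in WT. Every K700E library lay above every WT library, and the spread within each genotype was small, at 39.0 ± 1.13 TPM in K700E and 31.8 ± 0.335 TPM in WT (SD, n = 3 each). The log2 difference was 0.29 (SE 0.12), with an unadjusted limma p of 0.0447 and an adjusted p of 0.288. On the scale of TPM + 1 this is 1.22-fold, with a 95% interval of 1.01 to 1.48.

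SNRPD2, which encodes SmD2 and was the most abundant of the 44 genes, leaned the other way, with 431, 389 and 405 TPM in K700E, against 390, 506 and 460 TPM in WT. The libraries overlapped and the log2 difference of -0.14 had a limma adjusted p of 0.656. SNRPB, which encodes SmB, had 242, 237 and 278 TPM in K700E, against 144, 309 and 252 TPM in WT. All 3 K700E values fell inside the wide WT range. SNRPD1, encoding SmD1, had 77.5, 67.1 and 61.7 TPM in K700E, against 69.2, 60.5 and 61.3 TPM in WT. SNRPE and SNRPF, for SmE and SmF, had log2 differences of 0.07 and 0.06. The ring's members differed far more from each other than between genotypes: the highest level per length was 10.5 times the lowest in K700E and 14.2 times in WT, with the order SNRPD2, SNRPB, SNRPE, SNRPG, SNRPD1, SNRPF, SNRPD3 in both.

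SNRPG, encoding SmG, had 193, 166 and 142 TPM in K700E, against 157, 127 and 139 TPM in WT, a log2 difference of 0.24 (SE 0.15, limma adjusted p = 0.492). It is uncertain because 20 rows of SNRPG pseudogenes can take its reads. Those rows held 15.4% as many read ends as SNRPG, and being short they summed to 197, 173 and 152 TPM in K700E, against 157, 129 and 142 TPM in WT, or 103% of the gene's own TPM. The largest, SNRPGP10, had 108, 98.4 and 86.5 TPM in K700E, against 87.6, 75.1 and 83.3 TPM in WT. Adding the rows to the gene gave a log2 difference of 0.26 (limma adjusted p = 0.428). Over the 44 genes, 14 had pseudogene rows, 78 rows in all, and for 11 of those genes the rows together stayed under 1 TPM.

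The LSM2-8 ring binds the 3′ end of U6 RNA, and its LSM2 to LSM7 subunits also serve, with LSM1, in cytoplasmic mRNA decay. Its genes had a median log2 difference of 0.03, and none of the 7 had libraries that separated, against 24.0% of all genes tested. LSM2 had 290, 316 and 299 TPM in K700E, against 312, 328 and 321 TPM in WT, the lowest log2 difference in this ring at -0.09 (SE 0.11, limma adjusted p = 0.729). LSM6 had 17.4, 16.6 and 14.3 TPM in K700E, against 15.2, 11.9 and 13.6 TPM in WT, with a log2 difference of 0.23 (SE 0.16). LSM3 had 82.3, 78.2 and 57.0 TPM in K700E, against 74.7, 55.9 and 62.9 TPM in WT. LSM4 had 166, 164 and 168 TPM in K700E, against 151, 185 and 187 TPM in WT. In these genes the K700E and WT ranges overlapped.

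LSM8, the subunit that sets the nuclear ring apart from the cytoplasmic one, stood at 13.8 ± 0.526 TPM in K700E and 13.9 ± 1.81 TPM in WT (SD, n = 3 each), at the low end of its ring. That rank depended on the length by which reads were divided. The deposited table gives LSM8 17309 bases of exon over all its transcripts, 13.3 times the 1305 bases of its principal transcript in GENCODE 29. Divided by the principal transcript instead, LSM8 had 75.1 read ends per kilobase per 1000000 in K700E and 78.2 in WT, next to LSM2 with 121 in K700E and 133 in WT. The LSM ring then spanned 14.5-fold in K700E and 18.3-fold in WT, against 21.9-fold in K700E and 23.7-fold in WT with the deposited lengths. The choice of length alone leaves the comparison of genotypes within a gene as it is, since both tables used the same length. Read ends per kilobase per 1000000 are scaled to the total read ends of a library, unlike TPM. Ratios between genotypes therefore differ somewhat between these scales. With the deposited length LSM8 had 5.66 read ends per kilobase per 1000000 in K700E and 5.90 in WT.

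**Figure D3:**
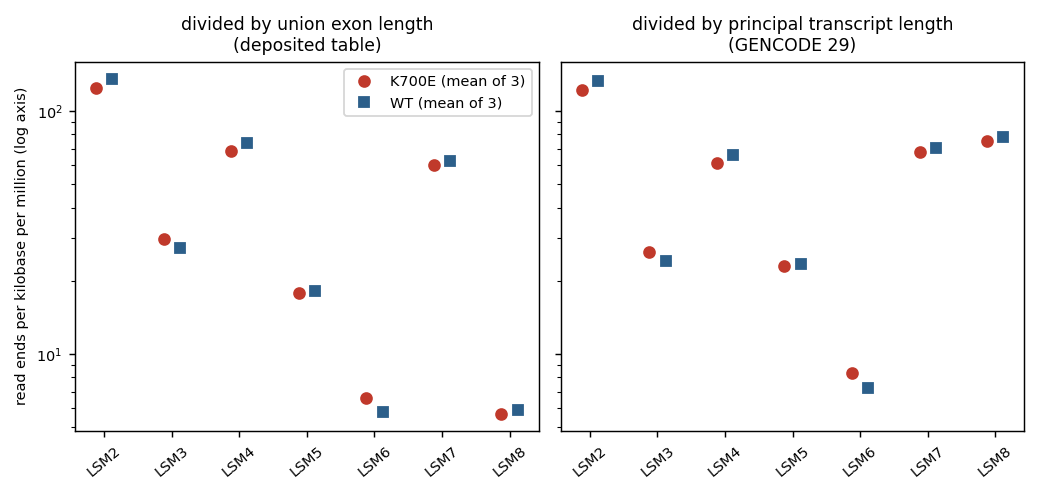
Level of the 7 LSM genes as read ends per kilobase per 1000000 on a log axis, with the length of all exons from the deposited table on the left and the principal transcript on the right; red circles are K700E means and blue squares WT means of 3 libraries. LSM8 is among the lowest on the left, and with the shorter length stands at 75.1 in K700E and 78.2 in WT.

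The U4/U6 and tri-snRNP group holds proteins that are part of the tri-snRNP or act with it. In the tri-snRNP, U6 stays paired with U4 until the particle has joined the intron. None of the 7 genes passed the test, and 1 had libraries that did not overlap, where 24.0% of all genes did not. All 7 had a log2 difference above 0, as had 10729 of the 15493 genes tested, and 4 of the 7 lay below the median gene. Their median of 0.10 was -0.03 with TMM scaling, -0.04 with median-ratio scaling and -0.03 with the GC correction. PRPF4 (ENSG00000136875, GRCh37 chromosome 9, 116037922 to 116056289, plus strand) encodes the U4/U6 protein that pairs with PRPF3. It had 45.03, 42.6 and 40.6 TPM in K700E, against 34.7, 32.3 and 32.9 TPM in WT. Every K700E library lay above every WT library, at 42.7 ± 2.24 TPM in K700E and 33.3 ± 1.22 TPM in WT (SD, n = 3 each). The log2 difference of 0.35 (SE 0.12) is 1.27-fold on the scale of TPM + 1, with a 95% interval of 1.05 to 1.55, an unadjusted limma p of 0.0228 and an adjusted p of 0.222.

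Its partner PRPF3 had 94.5, 78.2 and 72.4 TPM in K700E, against 75.8, 75.8 and 75.8 TPM in WT, so the K700E libraries lay on both sides of WT. PRPF31, which holds the U4/U6 and U5 particles together and is mutated in retinitis pigmentosa, had 34.6, 33.2 and 36.0 TPM in K700E, against 20.7, 39.8 and 30.9 TPM in WT. Its K700E values were close together and inside the WT range. PRPF38A, a protein of the precatalytic complex, had 72.6, 68.7 and 59.9 TPM in K700E, against 66.7, 53.5 and 58.3 TPM in WT. USP39, needed for the tri-snRNP to join, had 130, 112 and 105 TPM in K700E, against 114, 106 and 112 TPM in WT. SNRNP27, a phosphoprotein of the tri-snRNP, and SART1, which helps recruit it, each had a log2 difference of 0.02.

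PRPF4 starts 70 bases from CDC26, a gene on the other strand that encodes a subunit of the anaphase-promoting complex. CDC26 had 59.0, 51.0 and 45.2 TPM in K700E, against 39.2, 34.1 and 38.1 TPM in WT, and its libraries did not overlap either. Its log2 difference was 0.46 (SE 0.15, limma adjusted p = 0.187). Of the 44 genes, 13 had such a neighbour within 1000 bases. After adjustment 0 of the 13 neighbours were called, against 1.38% of all genes tested. At an unadjusted limma p under 0.05 there were 2 of the 13, CDC26 being 1 of them, against 16.5% of all genes tested. The other was ACTMAP beside SNRPA, which had 34.0, 38.2 and 42.5 TPM in K700E, against 58.4, 48.8 and 60.3 TPM in WT (log2 difference -0.53, limma adjusted p = 0.143), while SNRPA was 0.16. The neighbour of SNRPD3, GUCD1 at 64 bases, had a log2 difference of 0.18 (limma adjusted p = 0.587).

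The U5 snRNP aligns the exons at the catalytic centre. Its 5 genes had a median log2 difference of 0.01, and no gene separated the genotypes, where 24.0% of all genes tested did. PRPF8, the scaffold around the active site, had 177, 159 and 151 TPM in K700E, against 160, 172 and 169 TPM in WT. SNRNP200, the BRR2 helicase that unwinds U4 from U6, had 252, 221 and 212 TPM in K700E, against 215, 222 and 225 TPM in WT. For both genes the WT libraries lay inside the K700E range, and the 95% intervals stayed within 1.5-fold. EFTUD2, the GTPase of U5, had 169, 140 and 140 TPM in K700E, against 129, 141 and 132 TPM in WT, a log2 difference of 0.15 (SE 0.13, limma adjusted p = 0.601). PRPF6, which bridges U5 and U4/U6, had 130, 123 and 111 TPM in K700E, against 94.0, 158 and 129 TPM in WT. SNRNP40, a WD40-repeat protein of U5, had a log2 difference of 0.01.

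The PRP19 complex and its partners join as U4 leaves and stay through both steps of splicing. This group held both ends of the 44 differences, with a median of 0.25, or 0.13 with TMM and 0.11 with median-ratio scaling. None of the 9 genes passed the test, and 3 had an unadjusted p under 0.05, a share that was 16.5% over all genes. SNW1 (ENSG00000100603, GRCh37 chromosome 14, 78183942 to 78227499, minus strand) encodes SKIP, a protein of the catalytic spliceosome that also acts as a transcription coregulator. It had 125, 81.2 and 82.9 TPM in K700E, against 176, 137 and 146 TPM in WT. Every K700E library lay below every WT library, with K700E replicate 1 the nearest to WT. The means were 96.4 ± 24.8 TPM in K700E and 153 ± 20.1 TPM in WT (SD, n = 3 each). The log2 difference of -0.68 (SE 0.20) is a level 0.623 times that of WT on the scale of TPM + 1, with a 95% interval of 0.453 to 0.859. The unadjusted limma p was 0.00974 and the adjusted p 0.155, so SNW1 did not pass the test.

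SNW1 was the only one of the 44 genes called under any alternative: after a correction for GC content its log2 difference was -0.81 with a limma adjusted p of 0.0354, where 1.32% of genes were called lower. No other gene of the 44 was called with that correction, and 1.86% of genes were called higher. With that correction and without WT replicate 3 the adjusted p was 0.156. Leaving out each library in turn gave log2 differences of -0.88 to -0.57 and adjusted p-values of 0.0938 to 0.432, the last without WT replicate 3. By level SNW1 ranked next to PRPF19 at the top of its group in WT, and behind PRPF19, BCAS2, BUD31 and PLRG1 in K700E.

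SNW1 shares 118 exonic bases with SLIRP on the opposite strand, and the strand setting of the authors' counting is not given in the sources used here. SLIRP, which encodes a mitochondrial RNA-binding protein, had 111, 60.2 and 53.7 TPM in K700E, against 79.7, 56.0 and 65.0 TPM in WT, a log2 difference of 0.10 (limma adjusted p = 0.890). The nearby ALKBH1 and ADCK1 had log2 differences of -0.02 (limma adjusted p = 0.973) and -0.29 (limma adjusted p = 0.550). The libraries of these 3 neighbours overlapped. In all, 10 of the 44 genes shared at least 100 exonic bases with another row, in 11 pairs, and the other row averaged at least 1 TPM in 5 of these pairs.

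**Figure D4:**
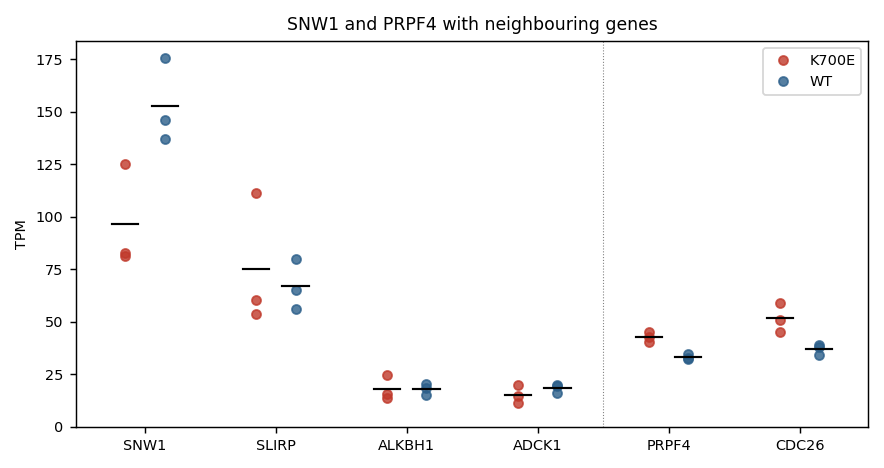
TPM of SNW1 and 3 genes of its locus, and of PRPF4 and its divergent neighbour CDC26, in each K700E library (red) and WT library (blue), with bars at the means of 3 libraries. For SNW1 the K700E libraries lie below WT, for PRPF4 and CDC26 above, and for SLIRP, ALKBH1 and ADCK1 they overlap.

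CDC5L (ENSG00000096401, GRCh37 chromosome 6, 44355443 to 44418162, plus strand), a Myb-related core subunit of the PRP19 complex, had 62.4, 57.7 and 51.9 TPM in K700E, against 48.7, 38.3 and 40.9 TPM in WT. Every K700E library lay above every WT library. The means were 57.4 ± 5.25 TPM in K700E and 42.7 ± 5.43 TPM in WT (SD, n = 3 each). Its log2 difference, 0.42 with an SE of 0.15, had an unadjusted limma p of 0.0222 and an adjusted p of 0.218.

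PLRG1 (ENSG00000171566, GRCh37 chromosome 4, 155456157 to 155471552, minus strand), the WD40-repeat subunit that binds CDC5L, had 119, 104 and 82.1 TPM in K700E, against 86.4, 67.6 and 73.3 TPM in WT. K700E replicate 3 fell below WT replicate 1, so the genotypes overlapped by that pair. Its log2 difference, 0.41 with an SE of 0.17, had an unadjusted limma p of 0.0479 and an adjusted p of 0.296. PRPF19, the ubiquitin ligase of the complex, had 245, 192 and 198 TPM in K700E, against 133, 205 and 182 TPM in WT. WT replicate 1 was far below the rest, and the difference was 0.30 (SE 0.19, limma adjusted p = 0.484) on the log2 scale. BCAS2, the fourth core subunit, had a log2 difference of 0.26 (SE 0.19, limma adjusted p = 0.531). The partners CRNKL1, RBM22, BUD31 and XAB2 had log2 differences of 0.25, 0.11, 0.07 and -0.14, with overlapping libraries.

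Step factors act once the catalytic centre has formed. The 6 genes had a median log2 difference of 0.10, from 0.01 for PRPF18 to 0.14 for DHX8. No gene had libraries that separated, where 24.0% of all genes tested did. DHX8, the helicase that releases spliced mRNA, had 49.4, 39.3 and 37.2 TPM in K700E, against 39.2, 36.7 and 37.6 TPM in WT. DHX38, the helicase that remodels the spliceosome between the steps, had 64.3, 54.8 and 54.2 TPM in K700E, against 47.5, 55.2 and 57.2 TPM in WT. SLU7, a factor of exon ligation and 3′ splice site choice, had 82.5, 70.1 and 62.4 TPM in K700E, against 65.9, 68.0 and 61.0 TPM in WT. The smallest limma adjusted p in the group was 0.700. CWC22, which brings the exon junction complex protein EIF4A3 to the spliceosome, had 54.7, 47.6 and 42.0 TPM in K700E, against 55.5, 35.9 and 45.6 TPM in WT. In all of these K700E replicate 1 was the highest K700E library.

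With the deposited lengths, the order of levels was identical in both genotypes for the U1, Sm, tri-snRNP, U5 and step factor groups. LSM6 and LSM8 exchanged places at the bottom of the LSM ring, where in WT they differed by less than their spread. The order also differed within the PRP19 group, where SNW1 stood lower in K700E and neighbouring pairs such as PLRG1 and RBM22 or CDC5L and XAB2 exchanged places.

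Part of the spread between replicates followed base composition. Across the 44 genes the log2 difference of WT replicate 1 from the mean of WT replicates 2 and 3 had a Pearson r of -0.80 and a Spearman rho of -0.81 with the GC content of the longest transcript. Over 15129 tested genes with a GC value these were -0.73 and -0.74, so the pattern was not particular to spliceosome genes. These correlations are across genes, which share their libraries and are not independent replicates. The 11 genes with GC above 55% were all lower in WT replicate 1, by a median log2 difference of -0.60. Of the 18 genes below 45%, 17 were higher there, by a median of 0.26. In K700E the corresponding difference of replicate 3 from the mean of replicates 1 and 2 had an r of 0.69 and a rho of 0.63. Over the 15129 tested genes these were lower, at 0.43 and 0.51.

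SART1 had 45.1, 42.7 and 51.9 TPM in K700E, against 25.1, 71.9 and 52.4 TPM in WT, the widest relative spread of the WT libraries among the 44. XAB2, a partner of the PRP19 complex that also takes part in transcription-coupled repair, had 46.3, 43.7 and 48.8 TPM in K700E, against 28.9, 74.0 and 61.6 TPM in WT. In both genes the K700E libraries all lay between WT replicate 1 and the other WT libraries. Without WT replicate 1, XAB2 had a log2 difference of -0.54 with a limma adjusted p of 0.104, and over all leave-one-out fits it ran from -0.54 to 0.13. The difference between genotypes itself had an r of -0.14 with GC over the 44 genes.

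**Figure D5:**
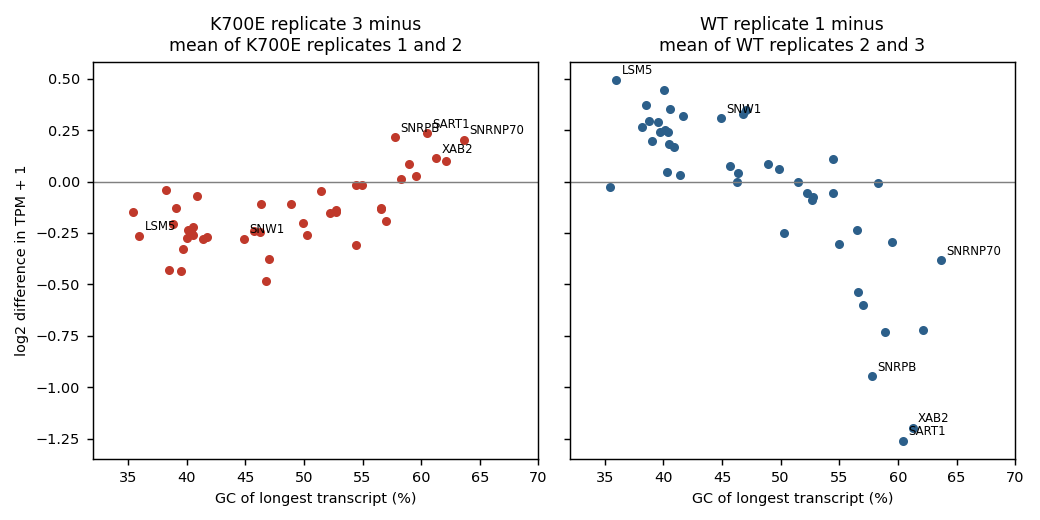
Log2 difference in TPM + 1 of 1 library from the mean of the other libraries of its genotype (vertical axis) against the GC percentage of each gene's longest transcript, for K700E replicate 3 on the left and WT replicate 1 on the right; each point is 1 of the 44 genes. GC-rich genes such as SART1 and XAB2 lie far below 0 in WT replicate 1 and somewhat above 0 in K700E replicate 3.

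Motif matches were counted in the 250 bases before the start for the 41 of 44 genes that matched a RefSeq entry, on both strands and with the first-listed entry of each gene. The ETS core, CCGGAAG, was found in 18 of the 41 promoters (43.9%), in 16.7% of the promoters of 10027 tested genes and in 8.82% of all 27305. PLRG1 was among the 18, and SNW1, PRPF4, CDC5L and SNRPD3 were not. The NRF1 core, GCGCATG, was in 6 of 41 (14.6%), against 6.73% of tested genes and 3.96% of all promoters. The ZNF143 motif marked above was in 2 of 41, SNW1 and PRPF4 (4.88%), against 2.36% of tested genes and 1.07% of all promoters, and was searched after those promoters had been read. The log2 difference was -0.68 for SNW1 and 0.35 for PRPF4, and neither gene passed the adjusted threshold. Whether the motif bears on these values was not tested. CCAAT was in 17 of 41 (41.5%), against 35.4% of tested genes and 33.04% of all. TATAAA was in 1 of 41, SNRPC, against 5.32% of tested genes and 11.1% of all. A match describes the letters and does not show that a factor binds.

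The wider pathway was read from the same fit. Of 88 genes in 7 lists, all but SNRPN reached a mean of 1 TPM and were tested, 0 were called in either direction by limma, against 1.38% of all genes, and 4 (4.60%) had an unadjusted p under 0.05, against 16.5% of all genes. For 18 of the 87 (20.7%) the libraries did not overlap, against 24.0% of all genes. The lists for other U1 factors, other tri-snRNP proteins, other PRP19, Bact and C complex proteins, the minor spliceosome, and LSM1-7 partners and relatives had median log2 differences of 0.08, 0.14, 0.10, 0.07 and 0.10. Those for Sm ring assembly and for disassembly had medians of 0.24 and 0.28.

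Of the 4, the 2 lower in K700E were in the list that holds the other PRP19, Bact and C complex proteins. SYF2, a protein of the catalytic spliceosome, had 99.5, 110 and 108 TPM in K700E, against 139, 171 and 143 TPM in WT, a log2 difference of -0.50 (SE 0.13, limma adjusted p = 0.124). SRRM1, the splicing coactivator SRm160, had 141, 145 and 121 TPM in K700E, against 201, 167 and 180 TPM in WT, a log2 difference of -0.43 (SE 0.13, limma adjusted p = 0.179). For both, every K700E library lay below every WT library.

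The 2 that were higher in K700E act before and after splicing. WDR77, the partner of the arginine methyltransferase PRMT5 that modifies Sm proteins for ring assembly, had 81.0, 56.1 and 59.7 TPM in K700E, against 42.7, 45.9 and 44.8 TPM in WT, a log2 difference of 0.53 (SE 0.17, limma adjusted p = 0.178). PRMT5 itself had 144, 110 and 98.2 TPM in K700E, against 94.8, 89.8 and 92.9 TPM in WT (limma adjusted p = 0.378). The Sm ring assembly list, of SMN and PRMT5 complex genes, had 12 of 16 genes above 0 and 4 below. CLNS1A was the lowest of them, with a log2 difference of -0.26 (limma adjusted p = 0.488). DBR1, the enzyme that opens intron lariats, had 16.2, 14.6 and 13.01 TPM in K700E, against 12.2, 9.31 and 10.3 TPM in WT, a log2 difference of 0.43 (SE 0.16, limma adjusted p = 0.248). For WDR77, PRMT5 and DBR1 the K700E libraries all lay above WT, and K700E replicate 1 was the highest.

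Scaling moved all of these values together. With TMM scaling the median of all genes was 0.01 and that of the 44 genes -0.02, and with median-ratio scaling -0.04 for the 44 genes and -0.00 for all. Set against the median gene, the 44 were therefore 0.03 lower as deposited and 0.04 lower with either scaling. Among the 28 genes of the 44 whose values are given by rule, 6 changed sign with TMM and 8 with median-ratio scaling, each of which had a difference of 0.14 or less before scaling. SNW1, CDC5L, PRPF4, SNRPD3 and PLRG1 kept theirs, and the log2 difference of SNW1 was -0.81 with TMM (limma adjusted p = 0.0907). With median-ratio scaling the log2 differences of CDC5L, PLRG1, PRPF4 and SNRPD3 were 0.28, 0.27, 0.21 and 0.14. At an unadjusted limma p under 0.05 there were 2 of the 44 genes (4.55%) with TMM and 1 (2.27%) with median-ratio scaling, against 14.5% of all genes with each.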

How the data were processed

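Bead-extracted RNA went into mRNA libraries, per the labels' protocols. The authors deposited TPM values per gene in a table per genotype, each library summing to 1000000. The build GRCh37 (hg19) and the tools featureCounts 2.0.1, TopHat2 2.1 and cutadapt 2.10 are named in the submitters' processing notes. The WT column names end as the aligner STAR names its files, so the aligner is not settled, and an aligner difference between the tables could not be told apart from genotype. Multiplying TPM by gene length gave whole multiples of 1 step per library for 100% of genes above 0 (tolerance 0.01), with the same lengths in both tables, so the tables were joined. These recovered reads were used for depth, and for limma-voom as an alternative.

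The 15493 genes that averaged 1 TPM or more were tested on log2(TPM + 1), which understates changes of low genes, with limma 3.58.1 in R 4.3.3 (empirical Bayes with trend, two-sided, Benjamini-Hochberg at 0.05, genotype only). An exact permutation test of 3 against 3 cannot go below 0.1. Values were joined with Python 3.11.15 and pandas 2.3.3. Gene names came from a table of gene names, and GC content, transcript lengths and pseudogenes from GENCODE 29 by gene ID or name. Coordinates are those of the deposited table unless GRCh38.p14 is named. The 44 genes, lists and the rule for named genes were chosen with earlier results of these data known. Per-library values are given for the 4 genes with the smallest adjusted p in each group and the most abundant one, and in each list up to 3 were eligible. PRMT5 and CLNS1A were not among these. PRMT5 is given beside its partner WDR77, and CLNS1A as the lowest gene of their list. SART1, XAB2 and SNRPB, the neighbours and the pseudogenes were named after their values were seen or for their position. Each result was recomputed with pseudocounts of 0.1 and 5, with no filter or 5 TPM, median-ratio and TMM scaling, no trend, a replicate block, protein-coding nuclear genes, limma-voom, a GC correction (lowess, span 0.3) and leaving out each library. The procedure was tested on simulated data.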

Additional observations from a re-analysis of the deposited data

How the results depend on the processing

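The median log2 difference of the 44 genes stayed between -0.04 and 0.16 under every alternative run, and 0 of the 44 were called higher or lower in each, except that the GC correction called 1 lower, SNW1 (log2 -0.81, limma adjusted p = 0.0354). The counts over all genes, 178 higher and 36 lower by limma, moved more. They were 0 and 0 without a filter, 73 and 19 at 5 TPM, and 99 and 23 among protein-coding nuclear genes. With the GC correction they were 282 and 199. Without a filter 38861 genes were tested. Of these, 4891 (12.6%) had an unadjusted limma p under 0.05, beside 4 of the 44 (9.09%). Leaving out 1 library gave 0 to 133 higher and 0 to 37 lower, with 0 and 0 without WT replicate 3. In that fit 1492 genes (9.59%) and 1 of the 44 (2.27%) had an unadjusted limma p under 0.05. The alternatives chosen after seeing the data, limma-voom and the GC correction each without WT replicate 3, also called 0 and 0, with 1442 and 1971 genes at an unadjusted p under 0.05. The cause of these shifts was not tested.

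Deviations of samples with the same replicate number from their group means had correlations of 0.28, -0.19 and 0.30, so the numbers were not taken to pair them. The replicate block called 59 genes higher and 8 lower, none of them among the 44, and gave SNW1 an adjusted p of 0.110. No gene of the 44 had under 879 read ends in a library, and the part of counting in the spread was not computed.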
